A study of Mus musculus with 67 samples.

Results

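The genes described here are the SR, hnRNP and RBM splicing regulators of the mouse preimplantation embryo. All rows of the deposited expression table were taken whose symbol starts with Srsf and a number, with Hnrnp, or with Rbm and a number. By this rule 68 of the 26414 genes listed were members, namely 10 SR genes, 20 hnRNP genes and 38 RBM genes, and 4 pseudogene rows were left out. RNA of 67 libraries had been made by SMART-seq2, a full-length cDNA protocol for very small inputs, from C57BL/6 embryos at 5 stages, whose mothers were 6 and fathers 10 weeks old. The light group (34 libraries) had been exposed at the 2-cell stage to 5000 lx for 6 h and then cultured in the dark, and the control group (33 libraries) had been kept from light. The 2-cell stage held 7 control and 6 light libraries, the 4-cell stage 6 and 8, the 8-cell stage 4 and 8, morulae 13 and 6, and blastocysts 3 and 6. Light embryos after the 2-cell stage were those that reached the stage after the exposure.

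SR proteins carry RNA recognition motifs and a tail rich in serine and arginine. They bind enhancer sequences in exons and bring the spliceosome to nearby splice sites. hnRNP proteins coat nascent transcripts and often act the other way, masking sites or silencing exons, and many also serve in RNA export, stability and transport. RBM genes are named only for an RNA binding motif and are mixed in function, with spliceosome components, exon junction factors and RNA decay factors among them. In early mouse embryos RNA stored in the oocyte is removed at about the time when the embryo's own genes are switched on at the 2-cell stage.

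The sequences just upstream of 6 genes are shown because these were the members whose control and light 2-cell libraries did not overlap in value, as described later. They are the 250 bases before the first RefSeq start listed for the gene on GRCm38.p6, 5′ to 3′ on its strand. Other starts of a gene were not looked at, and the start in use in embryos is not known. Capitals mark matches, on either strand, to any of 4 short motifs. These were the GC box, spelled GGGCGG, the CCAAT box as it is named, the core of sites of the ETS family, spelled CCGGAAG, and the TATA box, searched as the word TATAAA. GC boxes overlap one another in Hnrnpu and an ETS core in Srsf5.
Srsf1 (chr11:88047123-88047372, plus strand): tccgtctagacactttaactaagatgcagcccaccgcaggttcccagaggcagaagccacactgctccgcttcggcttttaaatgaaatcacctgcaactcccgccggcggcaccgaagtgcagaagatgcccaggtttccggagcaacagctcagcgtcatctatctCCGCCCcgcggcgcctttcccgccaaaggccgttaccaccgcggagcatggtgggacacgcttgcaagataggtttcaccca
Srsf5 (chr12:80945249-80945498, plus strand): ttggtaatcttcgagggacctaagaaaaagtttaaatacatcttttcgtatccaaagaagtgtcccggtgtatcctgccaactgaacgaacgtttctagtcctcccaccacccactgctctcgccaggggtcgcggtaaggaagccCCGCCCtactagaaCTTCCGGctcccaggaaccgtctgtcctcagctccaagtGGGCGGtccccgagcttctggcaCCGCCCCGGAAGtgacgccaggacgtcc
Hnrnpab (chr11:51606882-51607131, minus strand): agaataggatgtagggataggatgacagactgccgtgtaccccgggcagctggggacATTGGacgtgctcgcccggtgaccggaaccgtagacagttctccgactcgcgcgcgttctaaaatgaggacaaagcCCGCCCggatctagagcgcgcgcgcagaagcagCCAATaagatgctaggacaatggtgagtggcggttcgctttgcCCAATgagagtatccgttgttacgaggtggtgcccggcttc
Hnrnpf (chr6:117900090-117900339, plus strand): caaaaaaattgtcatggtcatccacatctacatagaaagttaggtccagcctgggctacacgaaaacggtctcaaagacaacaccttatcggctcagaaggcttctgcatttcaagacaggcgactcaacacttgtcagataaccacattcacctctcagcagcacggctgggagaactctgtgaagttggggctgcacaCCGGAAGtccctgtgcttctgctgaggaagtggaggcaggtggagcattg
Hnrnpu (chr1:178337816-178338065, minus strand): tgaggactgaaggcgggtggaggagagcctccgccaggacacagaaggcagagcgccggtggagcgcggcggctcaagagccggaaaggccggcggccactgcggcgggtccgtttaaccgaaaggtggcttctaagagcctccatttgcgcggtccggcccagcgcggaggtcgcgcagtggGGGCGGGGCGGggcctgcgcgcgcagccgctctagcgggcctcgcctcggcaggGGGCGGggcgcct
Rbm26 (chr14:105177315-105177564, minus strand): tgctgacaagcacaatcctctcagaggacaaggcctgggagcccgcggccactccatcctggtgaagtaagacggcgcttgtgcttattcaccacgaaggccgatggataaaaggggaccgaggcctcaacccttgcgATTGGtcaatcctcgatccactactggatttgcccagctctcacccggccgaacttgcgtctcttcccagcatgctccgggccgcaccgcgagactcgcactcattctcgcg

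A promoter was found for 57 of the 68 members. The GC box was in 31 of these promoters (54.4%) against 32.9% of all 27025 promoters of the same length. It was in 9 of 10 SR promoters, 13 of 18 hnRNP promoters and 9 of 29 RBM promoters. The CCAAT box was in 28 member promoters (49.1%, against 34.5% of all), the ETS core in 10 (17.5%, against 7.05%) and the TATA box in 7 (12.3%, against 13.0%). The member promoters had a median GC content of 60.8% against 52.0% for all. Among the 14 members that were higher in light at the 2-cell stage the GC box was in 9 promoters (64.3%). These 14 were 4 SR, 8 hnRNP and 2 RBM genes, classes with unlike shares of the box, so the value is no sign of an excess. In the sequences above it stands in those of Srsf1, Srsf5, Hnrnpab and Hnrnpu and is not in those of Hnrnpf and Rbm26. These matches describe the letters only.

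The deposited values were each library's reads over its own size factor, not corrected for gene length. Total reads per library lay between 836010 and 8551673 (median 4632053), of which 54.0% to 89.3% fell on CT010467.1 and Gm42418, a pair of genes in an rRNA region. All other genes shared the rest, and read numbers cover counting error only, since amplified cDNA without molecular identifiers does not give independent molecules. The share on CT010467.1 and Gm42418 was 73.87% to 76.95% in control and 68.86% to 73.85% in light 8-cell libraries, without overlap. At the other stages the groups overlapped in this share, and its part in the results was not tested. The ratio of Gm42418 to CT010467.1 separated the groups at the 2-cell stage (2.34 to 4.03 in control and 1.58 to 1.77 in light) as well as in 8-cell embryos and morulae, and its part in the results was not tested. The labels number embryos while the study's methods describe single cells from dissociated embryos, so libraries of a group may share an embryo, and p-values then measure only the spread between these libraries. By median correlation 4 of 6 control 4-cell libraries, 11 of 13 control morulae and 1 of 3 control blastocysts were closer to the light libraries of their stage than to their own group. The widest such gap was that of 4-cell control replicate 3 (0.844 to the light libraries and 0.788 to its own). The sum of 8 oocyte markers had its highest group medians at the 2-cell stage, and that of 8 trophectoderm markers in blastocysts. The lowest trophectoderm sum of control blastocysts (470) lay within the range of control morulae (171 to 1652). The sum of 7 inner cell mass markers had a median of 1285 in control and 169 in light blastocysts. That of 8 genes expressed transiently at the 2-cell stage overlapped between light 2-cell (76.4 to 1558) and control 8-cell libraries (25.5 to 217). A gene was called by limma where its Benjamini-Hochberg adjusted p was under 0.05 and it moved 2-fold or more on the scale of log2 of the value plus 1, which understates the change of low genes.

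Of the 68 members 45 were above 0 in every library and 46 had a mean of at least 100 in some group. Rbm24, which is known from muscle, was listed at 0 in all 67 libraries, that is, not detected at this depth. Rbm42 was above 0 in 5 libraries, Rbm43 in 6 and Rbm46 in 4. Rbm42 overlaps the readthrough gene Gm21982 in the annotation, and Rbm4, Rbm4b and Rbm14 overlap Gm21992, so their reads may have been dropped or split in counting. Rbm3os is antisense to Rbm3 and strand use in counting is not given in the sources used here, and Rbm8a2 is a near relative of Rbm8a. The values of these genes are uncertain for that reason.

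Levels per kilobase of exon allow a rough comparison between genes. The length used was that of all annotated exons of a gene, in another build than the one used for counting. In control 2-cell embryos Rbm38, an RNA stability factor of the p53 pathway, led with a mean of 1292 per kb, followed by Hnrnpab at 128, Hnrnpc at 99.0 and Hnrnpa1 at 91.4. In light 2-cell embryos Hnrnpab stood first at 604 per kb and Rbm38 second at 551. From the 4-cell stage on Hnrnpa1 and Hnrnpab held the first and second places in every group, in one order or the other. Hnrnpa1 was at 333 per kb in control and 664 in light 4-cell embryos, and at 247 and 145 in control and light blastocysts.

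As classes, SR and hnRNP genes took a larger share of the reads in light than in control 2-cell embryos. Shares were counted over reads outside CT010467.1 and Gm42418, which does not depend on the deposited size factors. The SR share had a lowest, median and highest value of 0.0882%, 0.146% and 0.167% in control and 0.171%, 0.271% and 0.333% in light, without overlap. For hnRNP genes the values were 0.197%, 0.297% and 0.359% in control and 0.503%, 0.625% and 0.749% in light, also without overlap. For RBM genes the values were 0.549%, 0.59% and 0.606% in control and 0.412%, 0.504% and 0.564% in light, with overlap. Rbm38 alone held 0.227%, 0.252% and 0.361% in control and 0.0406%, 0.114% and 0.218% in light. The other RBM genes together, a sum added after the data were seen, had 0.232%, 0.297% and 0.379% in control and 0.338%, 0.359% and 0.419% in light, so that without Rbm38 the median was higher in light, with overlap. At the 4-cell stage the SR share was 0.169% to 0.267% in control and 0.318% to 0.397% in light, without overlap, while the hnRNP share overlapped (0.577% to 0.842% and 0.763% to 1.21%). At the 8-cell stage the hnRNP share was 0.64% to 0.755% in control and 0.992% to 1.29% in light, without overlap, while the SR share overlapped (0.276% to 0.335% and 0.316% to 0.502%). In morulae the groups overlapped for SR genes (0.134% to 0.27% and 0.196% to 0.332%), hnRNP genes (0.441% to 0.731% and 0.564% to 1.05%) and RBM genes (0.221% to 0.328% and 0.254% to 0.371%). In blastocysts the hnRNP share was 0.679% to 0.727% in control and 0.569% to 0.878% in light, the control range lying inside the light range.

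**Figure D1:**
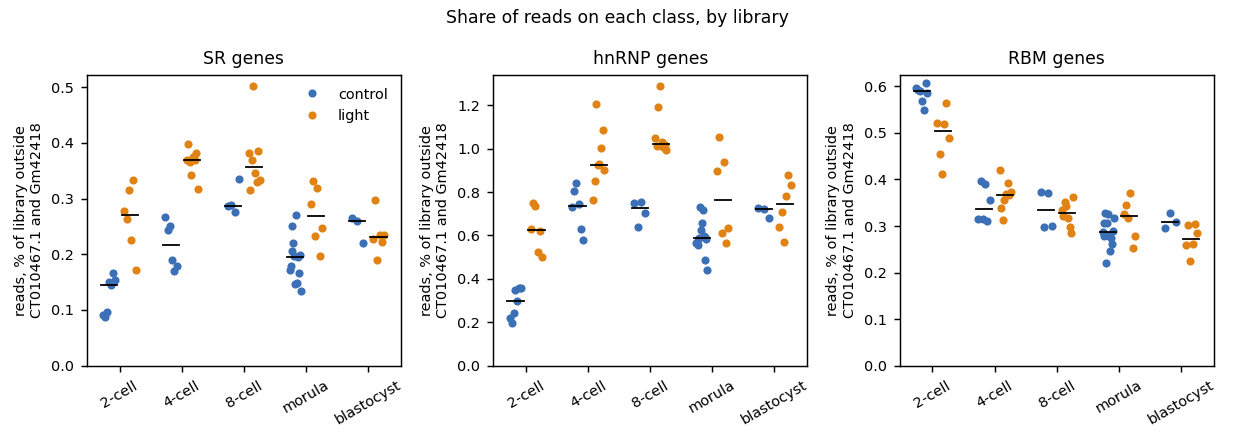
Share of each library's reads (%, outside CT010467.1 and Gm42418) on SR, hnRNP and RBM genes by stage, in control and light libraries. Each point is a library and bars are group medians. SR and hnRNP shares of light libraries lie above all control libraries at the 2-cell stage, and blastocyst groups overlap.

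The 2-cell comparison sets light against control embryos at the stage of the exposure. The labels do not give the time of collection, and a difference in age within the stage was not tested. Of 65 members tested, 16 were called, 14 higher and 2 lower in light (limma). Over all 18532 genes tested, 10.5% were called, 5.53% higher and 4.96% lower. By class, 4 of 10 SR genes, 8 of 20 hnRNP genes and 4 of 35 RBM genes were called, and every SR and hnRNP gene called was higher. The median log2 fold change was 0.90 over SR genes, 0.80 over hnRNP genes and 0.27 over RBM genes, with 0 over all genes tested. The control and light libraries did not overlap for 6 members (Srsf1, Srsf5, Hnrnpab, Hnrnpf and Hnrnpu higher, Rbm26 lower), against 4.15% of all genes. The same 14 genes rose, and the same 2 fell, with values rescaled by the median ratio.

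Among SR genes, Srsf1, which binds exonic enhancers and favours exon inclusion, had a lowest, median and highest value of 108, 295 and 583 in control and 630, 1055 and 1465 in light. Every light library was above every control library. The means were 312 ± 171 (SD, n = 7) and 1052 ± 267 (n = 6), a log2 fold change of 1.91 ± 0.32 (SE, limma adjusted p = 0.000201). Srsf7, which links splicing to mRNA export, had 14.5, 58.8 and 144 in control and 140, 284 and 671 in light. Only the edges of these ranges overlapped. Its log2 fold change of 2.39 ± 0.46 (limma adjusted p = 0.000893) was the largest rise of a member at this stage. Srsf5 had 65.5, 206 and 424 in control and 437, 580 and 1126 in light, without overlap (log2 fold change 1.72 ± 0.36, limma adjusted p = 0.00181). Srsf6 had 9.66, 51.2 and 147 in control and 76.7, 129 and 368 in light. Its groups overlapped, its log2 fold change was 1.74 ± 0.52 (limma adjusted p = 0.0261), and the call was lost in 4 of the fits that left out a library. The other SR genes did not pass. Srsf2 had means of 143 ± 69.5 and 260 ± 95.0 (limma adjusted p = 0.0981) and Srsf3 58.6 ± 32.7 and 109 ± 71.0 (limma adjusted p = 0.237). Srsf10, which acts as a repressor when dephosphorylated, had 560 ± 146 and 516 ± 109, a log2 fold change of -0.10 ± 0.25, and Srsf11 had 224 ± 115 and 185 ± 84.5.

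Among hnRNP genes, Hnrnpab, an A/B type protein that binds AU-rich RNA, moved most. It had a lowest, median and highest value of 142, 333 and 533 in control and 1131, 1554 and 2529 in light. The lowest light library stood above the highest control library. Its means were 357 ± 154 (SD, n = 7) and 1681 ± 477 (n = 6), a log2 fold change of 2.32 ± 0.28 (SE, limma adjusted p = 7.71e-06). Hnrnpf, which binds G-rich RNA, had 140, 257 and 361 in control and 471, 568 and 893 in light (log2 fold change 1.48 ± 0.28, limma adjusted p = 0.00079). Hnrnpu, a nuclear scaffold protein that binds chromatin and RNA, had 97.3, 269 and 382 in control and 490, 637 and 930 in light (log2 fold change 1.51 ± 0.30, limma adjusted p = 0.00121). Neither gene's groups overlapped. Hnrnpk, which binds C-rich RNA, had 113, 182 and 493 in control and 478, 738 and 934 in light, overlapping by the highest control library. Its log2 fold change was 1.68 ± 0.30 (limma adjusted p = 0.000452). Hnrnpm rose by 1.65 ± 0.43 on the log2 scale, from 77.0 ± 59.5 to 205 ± 82.0, and Hnrnph2 by 1.72 ± 0.50, from 91.3 ± 56.2 to 249 ± 104. The groups of both overlapped. Hnrnpa1, which silences exons, rose by 1.18 ± 0.32, from 288 ± 90.9 to 699 ± 347 (limma adjusted p = 0.0137). Hnrnpa2b1 rose by 1.11 ± 0.35 (limma adjusted p = 0.0344), but this call was lost in 8 of the fits that left out a library and with edgeR and DESeq2. Hnrnpc, which competes with the spliceosome for uridine tracts, had means of 428 ± 168 and 511 ± 191 and did not pass (limma adjusted p = 0.622). Nor did Hnrnpd, which promotes the decay of AU-rich RNA (85.2 ± 36.4 and 38.9 ± 19.6), Hnrnph1 (71.9 ± 39.2 and 78.5 ± 26.2) or Hnrnpl, which binds CA repeats (109 ± 68.4 and 182 ± 72.5). Of the other settings DESeq2 alone called Hnrnpd, as lower.

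Among RBM genes, Rbm38 and Rbm26 were lower in light. Rbm38 had a lowest, median and highest value of 2919, 3736 and 4759 in control and 481, 1461 and 3026 in light. The ranges overlapped at their edges. Its means were 3708 ± 712 (SD, n = 7) and 1582 ± 846 (n = 6), a log2 fold change of -1.40 ± 0.27 (SE, limma adjusted p = 0.000852), and the call was lost with quantile normalization. Rbm26, a factor of nuclear RNA decay, had 140, 192 and 274 in control and 54.4, 81.1 and 136 in light, without overlap (log2 fold change -1.32 ± 0.33, limma adjusted p = 0.00881). Rbm10, which favours exon skipping, rose from 133 ± 78.6 to 279 ± 94.8 and Rbm17, a binder of splice factor peptides, from 197 ± 86.7 to 394 ± 91.7. Both groups overlapped, and these calls were lost in 7 and 4 of the fits that left out a library. The exon junction gene Rbm8a (233 ± 140 and 306 ± 123), Rbm5 (209 ± 89.1 and 258 ± 23.7), Rbm6 (308 ± 123 and 444 ± 67.3) and Rbm39 (227 ± 118 and 306 ± 93.5) did not pass. The same held for Rbm22, a core spliceosome protein (125 ± 70.7 and 137 ± 71.6), and for Rbm25 (302 ± 179 and 316 ± 141). Rbm3, a cold-inducible RNA binding protein, had 37.4 ± 9.96 and 99.2 ± 44.2 (limma adjusted p = 0.0611). It was called higher with edgeR, DESeq2 and the filter on a mean above 5, and not under the other settings.

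**Figure D2:**
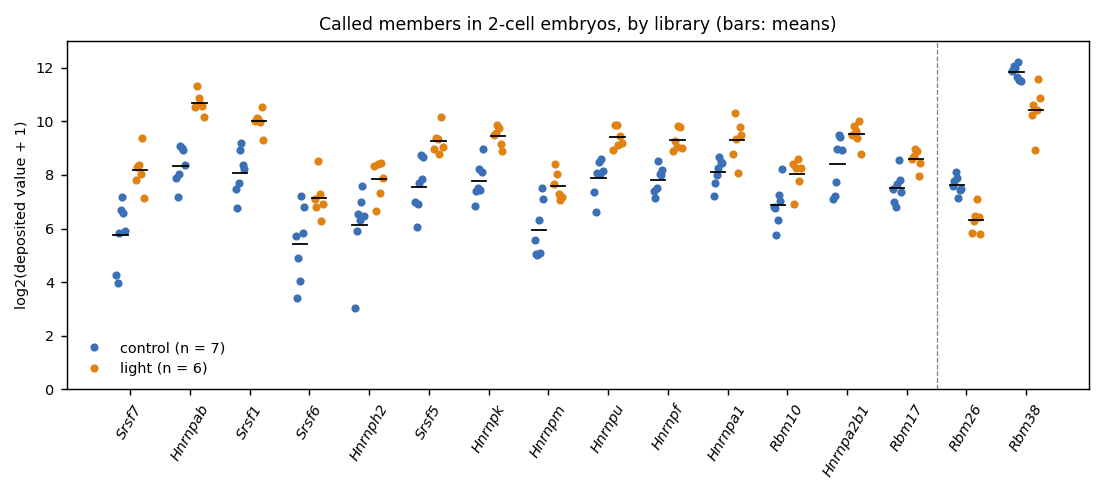
The 16 members called at the 2-cell stage, as log2 of the deposited value plus 1 in each library, control beside light, with bars at the means. Genes left of the dashed line were higher in light and Rbm26 and Rbm38, right of it, were lower.

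Oocyte markers differed between the 2-cell groups as well, being lower in light. The sum of 8 oocyte markers was 2581 to 5652 in control and 781 to 2293 in light 2-cell libraries, without overlap. The sum of 8 genes expressed transiently at the 2-cell stage was 295 to 850 in control and 76.4 to 1558 in light. Of 8 cumulus cell markers 5 were in the table, with Inha at 0 in both groups and Fshr at 0 in light, and their sum reached 6.21 in control and 57.5 in light. The part of these in the member results was not tested.

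Outside the 3 families, 58 other splicing regulators (kinases, importins, PTB, CELF, MBNL, CLK and LUC7 genes and others) were looked at beside the members. Of 56 tested at the 2-cell stage 12 were called, 6 in each direction, with a median log2 fold change of 0.17. Tardbp, an RNA binding protein known from motor neuron disease, rose by 1.82 ± 0.52 on the log2 scale (limma adjusted p = 0.0208), and the RNA helicase Ddx5 by 1.74 ± 0.31 (limma adjusted p = 0.000409). Ppp1cc, a catalytic subunit of the phosphatase that acts on SR proteins among others, rose by 1.67 ± 0.33 (limma adjusted p = 0.00117). Ptbp3 changed by -1.52 ± 0.35 (limma adjusted p = 0.00478), the C-rich RNA binder Pcbp2 by -1.42 ± 0.38 (limma adjusted p = 0.0138) and the SR protein kinase Srpk2 by -1.17 ± 0.29 (limma adjusted p = 0.00735).

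At the 4-cell stage 4 of 63 members were called, all higher in light, when 1.45% of all genes tested were called and 1.12% were higher (limma). With edgeR 2 were called, Srsf2 higher and Hnrnpd lower. No member's groups were without overlap (0.56% of all genes). The median log2 fold change was 0.17 over members and 0.13 over all genes. Srsf2, a nuclear SR protein, had a lowest, median and highest value of 69.4, 175 and 562 in control and 483, 755 and 1183 in light. The highest control library lay inside the light range. Its means were 238 ± 191 (SD, n = 6) and 775 ± 232 (n = 8), a log2 fold change of 2.04 ± 0.37 (SE, limma adjusted p = 0.0121). Srsf2 was called with each library left out in turn. Srsf6 had means of 178 ± 113 and 472 ± 160 (log2 fold change 1.65 ± 0.38), Hnrnpu 420 ± 242 and 960 ± 262 (1.32 ± 0.29) and Hnrnpa1 1050 ± 347 and 2095 ± 641 (1.00 ± 0.25). The groups of all overlapped, and the calls of Srsf6, Hnrnpu and Hnrnpa1 were lost in 5, 2 and 10 of the fits that left out a library. Without control replicate 3 the fit called 7 members. These were the same 4 with Hnrnpab and Hnrnpll higher and Hnrnpd lower. Of 54 other splicing regulators only Ppp1cc was called (log2 fold change 1.33 ± 0.33, limma adjusted p = 0.0375).

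At the 8-cell stage 10 of 62 members were called, 8 higher and 2 lower in light, against 9.21% of all genes, 5.91% higher and 3.3% lower (limma). On other scales the balance moved, with 5 higher and 4 lower by the median ratio, 5 and 2 after quantile normalization, 5 and 1 with edgeR and 7 and 5 with DESeq2. The median log2 fold change was 0.29 over members and 0.16 over all genes. The groups did not overlap for 10 members, of which Hnrnpa3 and Hnrnpab were not called, against 5.61% of all genes. Sums of marker genes were taken in the same libraries. The sum of the 8 transient 2-cell genes was 25.5 to 217 (median 81.9) in control and 0.53 to 136 (median 2.24) in light 8-cell libraries, and 0.85 to 6.57 in control 4-cell libraries. That of 7 inner cell mass markers was 216 to 342 in control, with Sox2 at 0 in all, and 151 to 1040 in light. The sum of the oocyte markers was 109 to 217 in control and 36.1 to 133 in light. Each of these overlapped between control and light, and their part in the 8-cell results was not tested.

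Rbm47, which is known as a cofactor of RNA editing and a regulator of RNA stability, differed most. It was at 35.2, 55.4, 15.1 and 1.67 in the 4 control libraries, while the lowest, median and highest light values were 138, 181 and 266. The groups did not overlap, and the log2 fold change was 3.44 ± 0.53 (SE, limma adjusted p = 0.000219). Srsf6 was at 95.3, 207, 125 and 85.5 in control and had 237, 473 and 529 in light, without overlap (log2 fold change 1.78 ± 0.28, limma adjusted p = 0.000252). Hnrnpa1 was at 712, 603, 446 and 665 in control and had 1235, 1653 and 2215 in light, also without overlap (log2 fold change 1.45 ± 0.18, limma adjusted p = 2.36e-05). Hnrnpk was at 275, 277, 182 and 83.0 in control and had 363, 460 and 714 in light, and again no library overlapped (log2 fold change 1.44 ± 0.28, limma adjusted p = 0.00221). Rbm25, a partner of the U1 particle, was lower. It was at 380, 443, 621 and 325 in control and had 90.0, 159 and 243 in light, without overlap (log2 fold change -1.51 ± 0.28, limma adjusted p = 0.00136). These 5 calls were kept with each library left out and under each of the 7 other settings.

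The other 8-cell calls were less stable. Rbm7, a subunit of a complex that feeds nuclear RNA to the exosome, rose from 13.4 ± 11.5 (SD, n = 4) to 54.0 ± 25.0 (n = 8) and was not called with edgeR. Hnrnpc rose from 290 ± 85.6 to 632 ± 128, Hnrnpf from 160 ± 53.0 to 322 ± 65.4 and Rbm3 from 79.0 ± 21.6 to 169 ± 55.4, and all of them were lost with the median ratio, quantile normalization and DESeq2. Rbm12b1 fell from 11.4 ± 4.80 to 1.32 ± 1.82, values that are low in every library. Its call was lost with edgeR, with a pseudocount of 0.1 and with no filter. Of 55 other splicing regulators 8 were called. The cold-inducible gene Cirbp (log2 fold change 3.39 ± 0.70), the AU-rich RNA binder Elavl1 (1.96 ± 0.55) and Tardbp (1.58 ± 0.32) led the 6 that rose, and Pcbp2 (-1.38 ± 0.37) and Qk (-1.32 ± 0.40) were the 2 that fell.

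In morulae no member of 64 was called by limma, against 1.18% of all genes, 0.355% higher and 0.821% lower. At an unadjusted p under 0.05 there were 12, when 15.3% of all 15217 genes tested passed that threshold. edgeR called 0, DESeq2 called 2 (Hnrnpa1 higher, Rbm8a2 lower), and scaling by the median ratio or quantile normalization each called Srsf2 alone. Srsf2 had a lowest, median and highest value of 98.5, 194 and 417 in control and 262, 383 and 484 in light. The ranges overlapped, with means of 222 ± 102 (SD, n = 13) and 376 ± 72.7 (n = 6), a log2 fold change of 0.87 ± 0.30 (SE, limma adjusted p = 0.145). Hnrnpa1 was spread widely among light morulae, from 258 to 1937. No member's groups were without overlap (0.552% of all genes), and 0 of 55 other splicing regulators were called.

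In blastocysts 5 of 64 members were called, all lower in light, against 5.34% of all genes, 4.98% lower (limma). Of the 64, 60 had a log2 fold change below 0, with a median of -0.91. The median over all genes was -0.64 on the deposited scale and the members' median lay -0.27 from it. On the median ratio scale the medians were -0.30 over members and -0.10 over all genes. 0 members were called there, after quantile normalization or with edgeR, and 1, Rbm25, with DESeq2. In 18 members the groups did not overlap, against 12.5% of all genes. Rbm25 was at 150, 192 and 304 in the 3 control libraries and had a lowest, median and highest value of 33.6, 65.0 and 116 in light. Its groups did not overlap, and its log2 fold change was -1.68 ± 0.43 (SE, limma adjusted p = 0.0248), or -1.04 relative to the median of all genes. Hnrnph2 was at 71.0, 124 and 112 in control and had 9.93, 26.6 and 56.3 in light, without overlap (log2 fold change -2.02 ± 0.56, limma adjusted p = 0.0359). Rbm27 (log2 fold change -1.92 ± 0.52), Rbm3 (-1.52 ± 0.43) and Srsf1 (-1.25 ± 0.36) were called too. No member was called without control replicate 2 or without control replicate 3, and 10 were called without light replicate 23. The sum of 7 inner cell mass markers was 289 to 1803 in control and 144 to 207 in light blastocysts, without overlap, and its part in these results was not tested. CT010467.1 and Gm42418 took 73.8% to 81.0% of reads in control and 77.8% to 89.3% in light blastocysts. The part of that share in these results was not tested either. Values relative to a library's reads cannot tell fewer cells of a type in the sample from less RNA per cell.

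Of 54 other splicing regulators in blastocysts 6 were called. Mbnl2, a muscleblind RNA binding protein, rose by 4.90 ± 0.66 on the log2 scale (limma adjusted p = 0.000298). Srpk2 (log2 fold change -2.17 ± 0.63), Qk (-1.90 ± 0.47) and the paraspeckle gene Nono (-1.84 ± 0.40) led the 5 that were lower on the deposited scale.

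**Figure D3:**
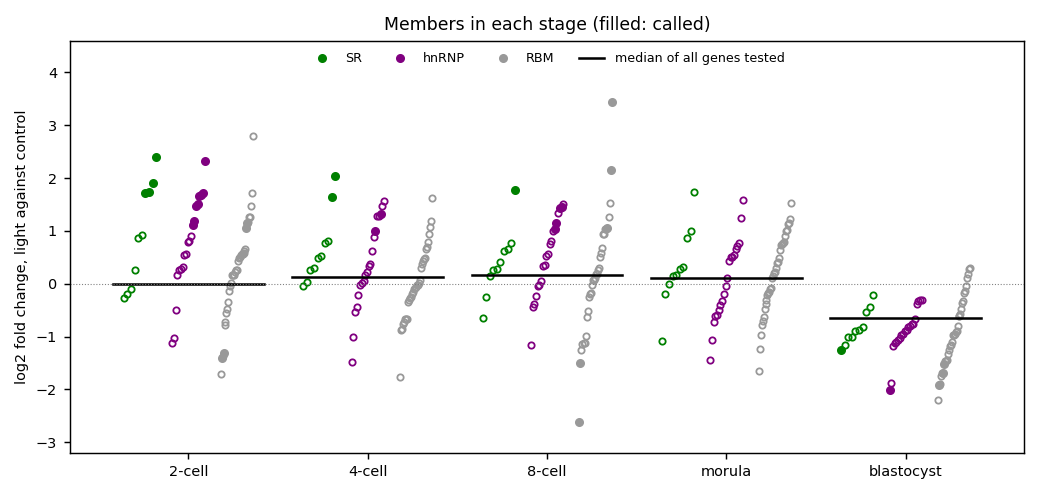
Log2 fold change, light against control, of each member tested at each stage. Points are genes, colored by class, and filled where called. At the 2-cell stage the filled points are mostly SR and hnRNP genes above 0, in morulae none is filled, and blastocyst points lie mostly below 0, as the median of all genes does (-0.64).

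**Figure D4:**
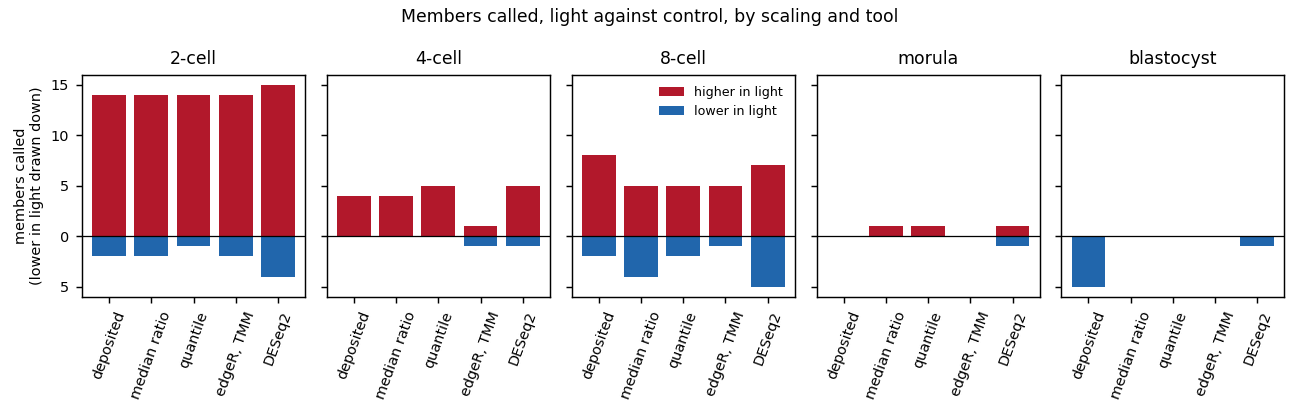
Number of members called in light against control at each stage by setting, higher in light drawn up and lower drawn down. At the 2-cell stage 14 members are called higher with the deposited values, the median ratio, quantile normalization and edgeR, and the 5 lower calls of blastocysts are 0 under the last 3 of these.

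Across stages the members' levels were followed within each group, and adjacent transitions share a stage's libraries. Of 66 members with a mean of at least 1 in some group, control levels were highest at the 2-cell stage in 25, at the 4-cell stage in 28, at the 8-cell stage in 7, in morulae in 2 and in blastocysts in 4. In the light group the numbers were 38, 20, 2, 6 and 0. For hnRNP genes alone, 3 of 20 were highest at the 2-cell stage in control and 11 of 20 in light. These positions follow the deposited scale. No such count was made over all genes, so the numbers do not show a shift particular to the members.

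From the 2-cell to the 4-cell stage 28 of 65 members were called in control, 16 higher and 12 lower, against 42.7% of all genes, 12.3% higher and 30.4% lower (limma). The split was 13 and 13 by the median ratio and 17 and 13 with edgeR. In the light group 23 of 64 were called, 9 higher and 14 lower, against 35.5% of all genes, 7.28% higher and 28.2% lower. With edgeR this split turned to 14 higher and 7 lower. The median log2 fold change of members was 0.22 in control and -0.08 in light, and that of all genes -0.49 and -0.44. The stages did not overlap in 15 members in control (17.7% of all genes) and 11 in light (11.5%).

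Rbm38 made the largest fall. Its lowest, median and highest value went from 2919, 3736 and 4759 to 15.7, 28.1 and 34.5 in control and from 481, 1461 and 3026 to 12.5, 34.8 and 120 in light. In neither group did the stages overlap. The log2 fold changes were -7.13 ± 0.47 (SE) and -5.30 ± 0.40 (limma adjusted p = 1.29e-14 and 4.35e-14). Rbm47 rose in both groups, by 3.78 ± 0.53 in control and 2.50 ± 0.35 in light on the log2 scale. Srsf3, the smallest SR protein and an export adaptor, rose from 58.6 ± 32.7 (SD, n = 7) to 437 ± 175 (n = 6) in control and from 109 ± 71.0 (n = 6) to 538 ± 198 (n = 8) in light. Its stages did not overlap in either group (log2 fold changes 3.00 ± 0.38 and 2.44 ± 0.32).

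Of the other leading genes, 3 fell in both groups. Rbm12b2 fell from 108 ± 56.7 to 6.62 ± 9.90 in control and from 78.4 ± 44.9 to 13.8 ± 15.0 in light. Rbm8a2 fell from 68.0 ± 46.9 to 12.1 ± 9.53 in control and from 59.1 ± 38.0 to 2.74 ± 2.99 in light. Rbm15b, a factor of RNA methylation complexes, fell from 156 ± 77.5 to 22.9 ± 9.95 in control and from 134 ± 55.3 to 20.7 ± 18.1 in light. For 3 more genes the call was made in one group. Rbm41 rose in control by 3.72 ± 1.00 on the log2 scale from a median of 0, a call lost with edgeR, and had 0.04 ± 0.67 in light. Rbm44, known from germ cells, fell in control from 35.6 ± 25.8 to 0.958 ± 2.35, with a log2 fold change of -4.48 ± 0.51, and had -1.59 ± 0.73 in light. Rbm45 rose in light by 2.13 ± 0.73, a call lost with edgeR, and had 1.59 ± 0.76 in control. None of these 6 passed the limma test of the difference between the groups. With edgeR that test called Rbm44, as falling less in light.

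The change from the 2-cell to the 4-cell stage differed between light and control for 3 of 65 members, against 3.07% of all genes (limma interaction term). These fits share the 2-cell libraries of the light comparison above. Rbm38 fell less in light (difference of log2 changes 1.83 ± 0.54, limma adjusted p = 0.0483). Hnrnpm rose in control by 1.87 ± 0.41 and had -0.23 ± 0.31 in light, a difference of -2.10 ± 0.57 (limma adjusted p = 0.0352). Its lowest, median and highest value went from 31.2, 46.8 and 180 to 93.7, 260 and 328 in control and from 132, 177 and 342 to 84.8, 159 and 319 in light. The light 2-cell libraries were at the level of the 4-cell libraries of both groups. Rbm3 rose in control by 2.54 ± 0.39 and had 0.61 ± 0.33 in light, a difference of -1.93 ± 0.53 (limma adjusted p = 0.0359). These calls were lost in 20 (Rbm38), 11 (Hnrnpm) and 10 (Rbm3) of the 27 fits that left out a library.

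From the 4-cell to the 8-cell stage 5 of 65 members were called in control, all lower (3.71% of all genes called, 2.5% lower), and 9 of 64 in light, all lower (6.82%, 6.4% lower). Stages without overlap were found in 9 members in control (4.48% of all genes) and 2 in light (1.71%). By the median ratio 4 were called in control, Rbm47 and Hnrnpc lower as before and Srsf1 and Rbm25, not among the 5, higher. In light 1 was called, Rbm10, lower as before. In control Rbm47 had a lowest, median and highest value of 108, 254 and 687 at the 4-cell stage, above all of the 8-cell values given before (log2 fold change -3.94 ± 0.61, limma adjusted p = 9.69e-05). Hnrnpc fell from 1074 ± 345 to 290 ± 85.6, also without overlap. Both calls were kept under the 3 other settings. Rbm5, a regulator of apoptosis gene splicing, fell from 166 ± 46.4 to 31.4 ± 23.7 and was not called with edgeR. In light Rbm10 (log2 fold change -2.05 ± 0.40), Rbm18 (-1.60 ± 0.42) and Rbm15 (-1.44 ± 0.36) led, and none of these was called with edgeR.

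From the 8-cell stage to the morula 10 of 65 members were called in control, 3 higher and 7 lower (11.4% of all genes called, 5.07% higher and 6.37% lower), and 10 of 64 in light, 1 higher and 9 lower (9.27%, 3.69% and 5.58%). The stages did not overlap in 2 members in control (3.68% of all genes) and 2 in light (2.65%). The split by the median ratio was 2 higher and 7 lower in light, and with edgeR it was 3 and 4 in control. In control Rbm47 rose again, to 109, 181 and 340, without overlap with the 8-cell stage (log2 fold change 3.49 ± 0.54, limma adjusted p = 1.98e-05). Thus Rbm47 was low at the 8-cell stage in the 4 control libraries, between higher levels before and after, while the light 8-cell libraries held 138 to 266. In the same 4 libraries the sum of the 8 transient 2-cell genes was 25.5 to 217, above the control 4-cell libraries (0.85 to 6.57), and its part in the Rbm47 values was not tested. Hnrnpul1 rose by 1.84 ± 0.57 and Hnrnpk by 1.21 ± 0.36. Rbm41, Rbm12b1 and Rbm12 made the largest falls and were lost with edgeR. In light Rbm38 rose from 25.4 ± 13.0 to 84.4 ± 46.5 without overlap (log2 fold change 1.70 ± 0.40), and Srsf6 fell from 432 ± 114 to 136 ± 105 (-1.87 ± 0.33, limma adjusted p = 5.96e-05). Hnrnph3 and Rbm33 followed with -1.47 ± 0.45 and -1.46 ± 0.32.

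From the morula to the blastocyst 3 of 65 members were called in control, 1 higher and 2 lower (10.2% of all genes called, 5.99% higher and 4.23% lower). In light 19 of 64 were called, all lower (14.5%, 11.2% lower). No overlap was seen for 3 members in control (5.99% of all genes) and 10 in light (5.71%). The counts of calls depended on the scale. By the median ratio 10 were called in control, 8 higher and 2 lower, and 5 in light, 4 higher and 1 lower, and edgeR called 6 (3 in each direction) and 2 (1 in each direction). In control Rbm44 rose from values of 0 to 0.814 in morulae to 6.31, 11.6 and 20.2 in the 3 blastocyst libraries (log2 fold change 3.36 ± 0.59, limma adjusted p = 0.000113). Rbm8a2 fell from 10.1 ± 4.66 to 0.467 ± 0.536 and Srsf9 from 70.6 ± 52.0 to 10.0 ± 6.75. In light Rbm17 had 80.3, 157 and 207 in morulae and 20.6, 35.6 and 67.8 in blastocysts, without overlap (log2 fold change -1.91 ± 0.28, limma adjusted p = 1.48e-06), and this call was kept by the median ratio and with edgeR. Rbm45 (-2.21 ± 0.78), Srsf9 (-1.98 ± 0.53) and Rbm28 (-1.97 ± 0.47) had larger falls on the deposited scale and were lost by the median ratio and with edgeR.

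**Figure D5:**
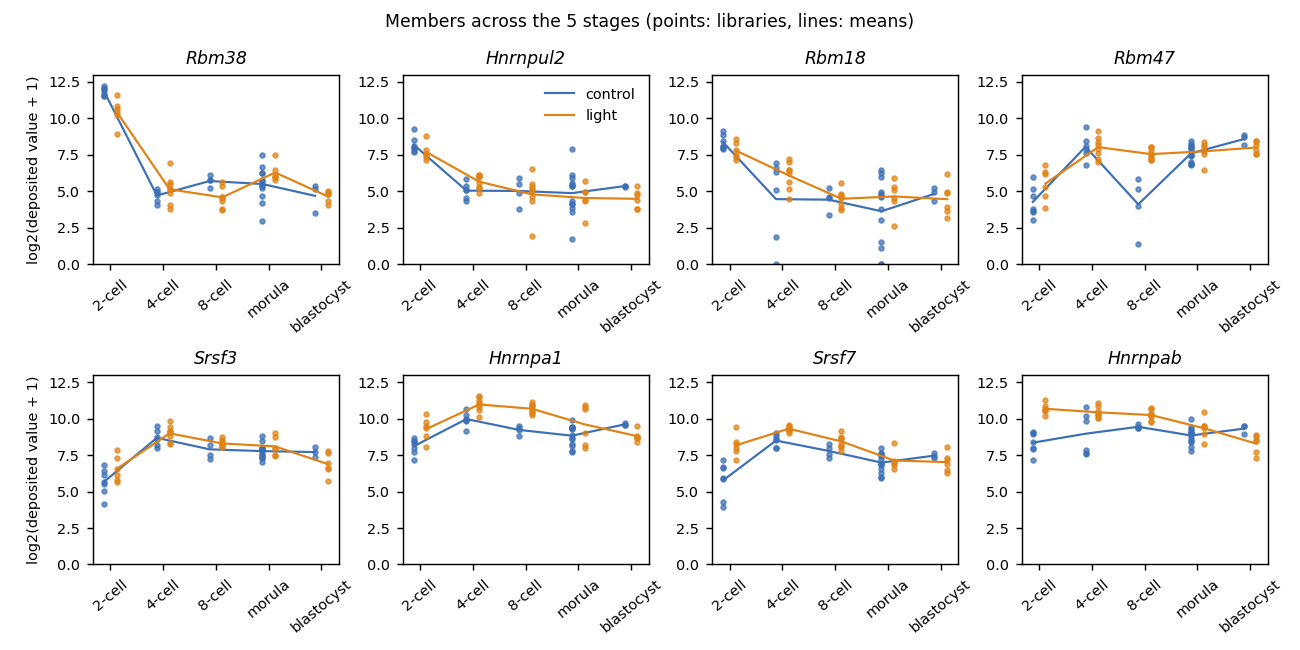
Course of 8 members over the 5 stages as log2 of the deposited value plus 1, control and light side by side, with a point for each library and lines through group means. Rbm38 drops after the 2-cell stage in both groups, and Rbm47 is low at the 8-cell stage in control (1.67 to 55.4) and not in light (138 to 266).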

How the data were processed

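Libraries were made by SMART-seq2 and, per the submitters' processing notes, reads were handled with HISAT2 and HTSeq 0.9.1 on mm9. In the deposited signal table the authors had scaled each library's reads by its own size factor. RPKM is what the study's methods name, but whole reads came back from at least 99.97% of values (tolerance 0.01), so no division by gene length was present. An earlier description of the deposited values had already given them as reads over a library size factor, and the test for normalized values was planned and used for that reason.

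All fits were made with limma 3.58.1 (lmFit, eBayes with trend, R 4.3.3) on log2 values after adding a pseudocount of 1. Genes entered a fit when 3 or more of its libraries were above 1. Calls needed an adjusted p under 0.05 together with a 2-fold change. Each stage gave its own comparison of light with control. Stages were compared within each group over all libraries of that group, and the interaction used the 2-cell and 4-cell libraries. p-values were adjusted over all genes tested. The tests were first tested on simulated data. All columns were mapped to samples (0 unmapped). The most alike libraries within a group still differed by a chi-square of 7.39 or more per degree of freedom, so none was counted as a duplicate. No batch, litter or mouse was named, so no covariate was used.

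Alternatives were a pseudocount of 0.1, no filter, a mean above 5, median ratio scaling, quantile normalization, the quasi-likelihood test of edgeR 4.0.16 with TMM, DESeq2 1.42.0 (both on recovered reads), a replicate block, and fits without each library. The transitions and the interaction were recomputed only with the pseudocount, the median ratio, edgeR and each library left out. Coordinates and exon lengths come from GENCODE M21 (GRCm38), which holds all 68 symbols and is not the authors' build, and promoters from RefSeq GRCm38.p6.

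The genes named were a fixed backbone of SR, hnRNP and RBM genes, the members with the largest changes among those called (up to 6 per direction in light against control, up to 3 in a transition), those called in the interaction, those at 0 in every library, and up to 3 other splicing regulators per direction and stage. Other genes were named where a count of 5 or fewer, or a lost call, needed its members. The members, lists and rules were chosen with earlier results of these data known.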

Additional observations from a re-analysis of the deposited data

Results flagged for a closer look

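In groups of 4 to 10 libraries, 65 pairs of a called member and a group were looked at for a library far from the rest. Such a library was found in 5. The nominal rate of the rule is about 1 in 20 groups of normally spread values, and its rate in these data was not measured. In light 2-cell embryos, replicate 15 held the highest value of both Srsf5 (1126) and Srsf7 (671), and replicate 12 that of Srsf6 (368). In control 2-cell embryos, Rbm10 reached 295 in replicate 24. In light 8-cell embryos, Rbm12b1 was at 5.48 in replicate 12 with the others at 1.99 or less. At the 2-cell stage the calls of Srsf5 and Srsf7 were kept with each library left out, and that of Srsf6 was lost in 4 such fits.

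Some members were higher in every light library at an early stage and lower in every light library in blastocysts. The difference of the log2 fold changes between the 2-cell and the blastocyst stage was 3.35 for Hnrnpab, 3.16 for Srsf1 and 2.32 for Hnrnpu. Between the 8-cell and the blastocyst stage it was 2.26 for Hnrnpa1, 2.21 for Hnrnpc and 1.84 for Hnrnpab. These differences between stages were not tested, and they include the median of all genes in blastocysts, which was -0.64 on the deposited scale.

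The change from the 2-cell to the 4-cell stage differed between light and control in the limma interaction term for Hnrnpm (-2.10, adjusted p = 0.0352), Rbm3 (-1.93, adjusted p = 0.0359) and Rbm38 (1.83, adjusted p = 0.0483).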

How the results depend on the processing

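At the 2-cell stage the count of members called was 16, and 12 to 19 under the 7 settings other than the replicate block. In 4-cell embryos 4 became 2 with edgeR and 1 with no filter, and in 8-cell embryos 10 became 6 with edgeR. In morulae 0 became 1 with the median ratio, 1 with quantile normalization and 2 with DESeq2. In blastocysts 5 became 1 with a pseudocount of 0.1, 1 with DESeq2, and 0 with the median ratio, edgeR, quantile normalization or no filter. Among transitions, control 4-cell to 8-cell went from 5 to 2 with edgeR, and control morula to blastocyst from 3 to 10 with the median ratio and 6 with edgeR. Light 2-cell to 4-cell went from 23 to 21 with edgeR with the balance turned. Light 4-cell to 8-cell went from 9 to 1 with the median ratio and 0 with edgeR, and light morula to blastocyst from 19 to 5 and 2. The interaction went from 3 to 1 with a pseudocount of 0.1. The cause of these shifts was not tested.

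With 1 library left out at a time, light against control gave 11 to 17 calls in 2-cell embryos, 1 to 7 in 4-cell embryos and 8 to 11 in 8-cell embryos. Morulae gave 0 to 0 and blastocysts 0 to 10. The lowest 2-cell count came without light replicate 12. The lowest 4-cell count came without control replicate 5 or light replicate 13, and the highest without control replicate 3. In control transitions, in order of stage, they were 24 to 30, 2 to 7, 5 to 10 and 1 to 4, with the lowest of the last 3 without control 8-cell replicate 4, without the same library and without blastocyst replicate 3. In light transitions they were 20 to 26, 7 to 10, 7 to 13 and 16 to 23, and in the interaction 0 to 4, with 0 without light 2-cell replicate 9 or 12, control 4-cell replicate 4, 5 or 6, or light 4-cell replicate 1 or 7. Of 145 called pairs of a gene and a comparison, 0 turned direction under any setting or library left out. Counted over each pair with each other setting, 173 of 594 lost the call. Counted over each pair with each library left out, 298 of 4102 did. For transitions the library left out was often of a stage outside the contrast, so the latter share says little about the stability of those calls.

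With the replicate number as a block, 2-cell embryos, 4-cell embryos and morulae each gave 0 calls among members, and 0 among all genes. The groups shared only 3, 3 and 4 numbers at these stages. Most libraries thus had a block of their own, which left little to test with, and no conclusion is drawn from these 0 calls. Libraries with the same number showed no common deviation (correlations of deviations -0.087 to 0.069). With so few shared numbers this cannot decide whether the numbers pair the samples, and they were not treated as pairs. For 8-cell embryos and blastocysts no such fit was made, as their groups shared fewer than 2 numbers. Depth limits genes with few reads, such as Rbm42, Rbm43 and Rbm46.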
